A study of Mus musculus with 2 samples.

Results

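Resistin, the resistin-like molecules and the best known genes of alternatively activated macrophages were compared between papain and vehicle in mouse nasal mucosa. The 7 genes were Retn, Retnla, Retnlb, Retnlg, Arg1, Mrc1 and Pdcd1lg2, taken by their gene symbol out of 22180 named genes on the array. Each of the 7 had 1 probe set, so no choice between probe sets was needed. Retnla, which encodes the secreted protein RELM-alpha, read far higher in the papain array than in the PBS array, and the other 6 genes lay within 2-fold between the arrays.

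The tissue was nasal mucosa of C57BL/6 mice aged 4 to 6 weeks, and its total RNA was measured on the Affymetrix Mouse Gene 2.0 ST array. The treated group was instilled with papain, a plant cysteine protease, and the control group with phosphate-buffered saline (PBS). Both titles give 3 days. Each group was 1 array, and per the design text 4 samples were pooled, whether per array or in all is not stated, so animals within a group could not be compared. A single array per group allows no test and no replicate check of any difference below, and this number of arrays sets the precision. The mucosa holds many cell types, and in such bulk RNA fewer cells of a type and less RNA per cell cannot be told apart.

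The resistin-like molecules are small secreted proteins rich in cysteine. In mice resistin itself (Retn) is made by adipocytes, RELM-alpha (Retnla) by macrophages and epithelium exposed to IL-4 and IL-13, RELM-beta (Retnlb) by goblet cells, and RELM-gamma (Retnlg) by myeloid cells, neutrophils among them. IL-4 and IL-13 act through the receptor subunit IL-4R-alpha and the transcription factor STAT6. In macrophages the same signal raises the urea cycle enzyme arginase 1 (Arg1), the mannose receptor CD206 (Mrc1) and the checkpoint ligand PD-L2 (Pdcd1lg2). All of these except Retn, Retnlb and Retnlg are commonly used as markers of alternative activation.

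Retnlb, Retnla and Retnlg lie in this order on mouse chromosome 16, within 57.6 kb, and Retn lies apart on chromosome 8. In RefSeq's annotation of GRCm38.p6, Retnlb spans chr16:48816856-48818892, Retnla chr16:48842609-48844461 and Retnlg chr16:48872608-48874498. Retn spans chr8:3655770-3659818, Arg1 chr10:24915207-24927470, Mrc1 chr2:14229414-14332023 and Pdcd1lg2 chr19:29410919-29472927. All 7 are annotated as protein coding.

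Upstream sequences from RefSeq (GRCm38.p6) were found for 5 of the 7 genes, Retn, Retnla, Retnlg, Mrc1 and Pdcd1lg2. The STAT6 recognition pattern TTCNNNNGAA, which reads the same on both strands, was searched in the 250 bases before each gene's start. It was present in Retnla, Retnlg and Pdcd1lg2 and not found in the windows of Retn and Mrc1, against 5.85% of all 32851 promoter windows of this length. These 3 windows are shown because they hold the pattern, which stands in capitals, and because their genes differed in how they read after papain. They run 5′ to 3′ on the plus strand, at chr16:48842359-48842608 for Retnla, chr16:48872358-48872607 for Retnlg and chr19:29410669-29410918 for Pdcd1lg2.
Retnla: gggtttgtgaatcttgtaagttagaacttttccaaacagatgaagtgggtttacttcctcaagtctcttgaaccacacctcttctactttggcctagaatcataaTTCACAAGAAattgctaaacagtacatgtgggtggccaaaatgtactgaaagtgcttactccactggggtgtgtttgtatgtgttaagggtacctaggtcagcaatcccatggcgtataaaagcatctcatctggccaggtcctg
Retnlg: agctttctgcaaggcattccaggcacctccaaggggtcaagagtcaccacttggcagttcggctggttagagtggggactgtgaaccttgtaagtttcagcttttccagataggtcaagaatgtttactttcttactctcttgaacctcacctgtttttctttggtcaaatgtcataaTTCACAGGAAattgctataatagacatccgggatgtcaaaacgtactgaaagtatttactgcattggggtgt
Pdcd1lg2: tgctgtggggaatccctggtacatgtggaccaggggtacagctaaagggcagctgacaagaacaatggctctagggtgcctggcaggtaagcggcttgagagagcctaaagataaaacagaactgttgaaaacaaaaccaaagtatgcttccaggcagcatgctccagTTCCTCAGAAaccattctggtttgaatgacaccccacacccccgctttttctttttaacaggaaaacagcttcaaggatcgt

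The match in Retnla, TTCACAAGAA, began 145 bases before the gene's start, that in Retnlg, TTCACAGGAA, 72 bases before it, and that in Pdcd1lg2, TTCCTCAGAA, 82 bases before it. A local alignment of the Retnla and Retnlg windows covered 178 positions with 138 identical bases (77.5%). Both matches stood at the same place in that alignment, with 9 of 10 bases identical. The pattern TATAAA was found 30 bases before the start of Retnla and in none of the other 4 windows, against 12.4% of all promoter windows on either strand. In the alignment the last base of the Retnlg window, -1, stood opposite base -74 of Retnla. The Retnlg stretch opposite the TATAAA of Retnla was therefore outside the window and was not searched. The related spacing TTCNNNGAA was found in none of the 5, against 7.02% of all. A match of letters is a description of the sequence and shows no binding. Across the array, 20 of 1086 genes with TTCNNNNGAA in their window were at least 2-fold higher after papain (1.84%), and 295 of 15904 genes without it were (1.85%). At least 2-fold lower were 14 genes with the pattern (1.29%) and 104 without it (0.654%), and these shares are given with no test.

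Retnla had a log2 signal of 6.07 after papain against 2.70 after PBS. The papain value stood above background level and the PBS value well under it. Background level is the median signal of 28 measured genes of other tissues, such as insulin, prolactin and sperm protamine genes, and it was 4.98 after papain and 5.02 after PBS. The log2 difference, papain minus PBS, was 3.38 between the array signals. Because the PBS signal was under background this difference is no measure of the fold in transcript. Taken over the background level of the PBS array instead, the papain signal of Retnla was 2.08-fold higher. That level is a median, so 2.08 is no lower limit of the fold. The genes of other tissues themselves reached 6.85 at their 95 percentile over both arrays, above the papain signal of Retnla, so against that stricter limit no fold can be given. Among them, Odf1 read 10.48 after papain and 10.91 after PBS and was kept in the set. Keeping it raises the limit of 6.85, so a signal just under 6.85 could exceed a limit set without Odf1. Such a limit was not computed. The PBS signals of Chil3, Tfec, Pdcd1, Batf3, Fpr2, Calr4, H2-M1 and Morc1 were likewise under background, and Trat1 and Myh15 were under it in both arrays, so the differences given for them below are also differences of array signals.

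**Figure D1:**
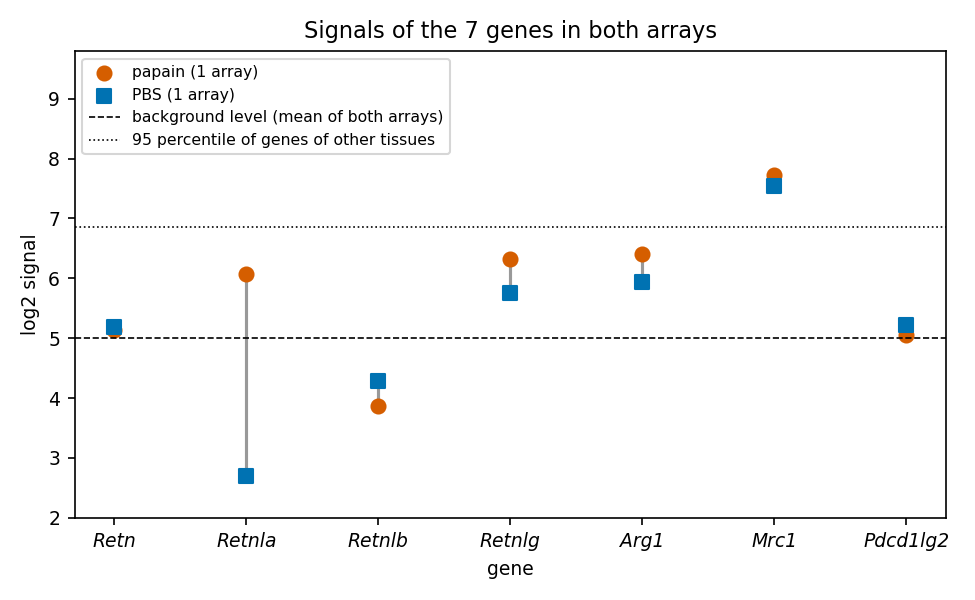
Log2 signals of the 7 genes, with the papain array as circles and the PBS array as squares, 1 array each and therefore no error bars. The dashed line is background level and the dotted line the 95 percentile of genes of other tissues, 6.85; Retnla is the 1 gene whose values lie far apart, at 6.07 and 2.70, and Mrc1 is the 1 gene above the dotted line.

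After papain 1 of the 7 genes, Retnla, was past 2-fold upward and 0 were past 2-fold downward. Of all 22180 named genes, 1.83% passed 2-fold upward and 0.730% downward. Without vomeronasal and olfactory receptor genes, told by names beginning with Vmn1r, Vmn2r or Olfr, these shares were 0.885% and 0.318%. This division was made after the values had been seen. Counting only genes whose higher signal reached the median signal of all genes, 6.29, left 3 of the 7. Retnla was not among these 3, and 0 of them passed 2-fold upward, against 1.59% of 11708 genes. The median log2 difference of the 7 genes was 0.18, against -0.03 over all 22180 genes, with 4 genes above 0 and 3 below. Background level was exceeded by 6 of the 7 signals after papain and by 5 after PBS, while 1 of 7, that of Mrc1, exceeded 6.85 in either array. The 1 difference past 2-fold was therefore that of Retnla, the gene with the lowest PBS signal of the 7.

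Of 1546 genes within 0.25 of the mean signal of Retnla, 4.38, 3 (0.194%) differed by as much in either direction. These counts and the following rank describe array signals, since they rest on a PBS signal under background. In array signal, the difference of Retnla ranked 72 among 22180 genes counted from the highest. Of the 72 genes, 65 were vomeronasal receptors, which detect pheromones. The other 7 were Bpifb9b, Bpifb9a, Chil4, H2-M1, Zpld2, S100z and Retnla itself. This split went by gene name only, and H2-M1, a nonclassical class I gene of the vomeronasal organ, was counted among the other 7. In the papain array the signals of these 7 ran from 6.07 for Retnla to 12.74 for Chil4.

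**Figure D2:**
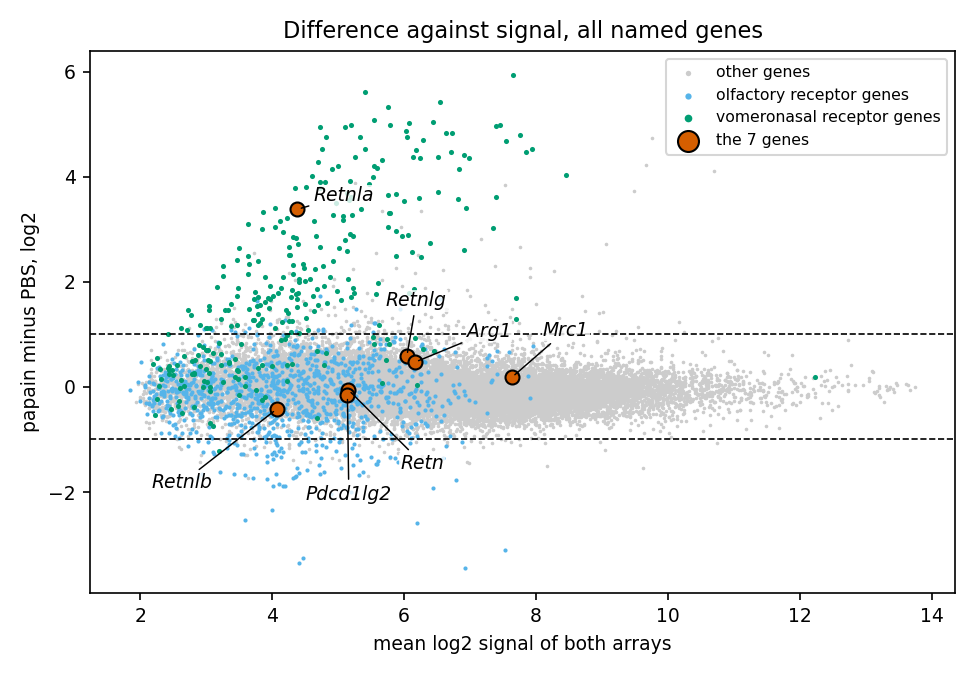
Papain minus PBS log2 difference (vertical) against the mean log2 signal of both arrays (horizontal) for 22180 named genes, 1 point per gene, with dashed lines at 2-fold. Retnla, at 3.38, lies among the vomeronasal receptor genes, and the other 6 genes lie inside the dashed lines.

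Few probe sets as dim as that of Retnla after PBS read as bright as it did after papain. Within 0.25 of the PBS signal of Retnla lay 554 other genes, whose papain signals ran from 1.75 to 8.21 with a median of 2.82. Of these 554, 13 reached the papain signal of Retnla, and all 13 were vomeronasal receptors. Among the 386 whose names did not begin with Vmn1r, Vmn2r or Olfr the highest papain signal was 4.60, and 0 reached 6.07. Chemoreceptor genes with other names, such as V1rd19, were counted among these 386. The genes whose pair of signals lay nearest to that of Retnla, by distance over both arrays, were Vmn2r92 at 0.26, Vmn1r35 at 0.29 and Vmn1r226 at 0.35 log2 units. Markers of vomeronasal neurons read higher in the same array as Retnla. Of 6 measured, 5 were above 0, against 45.6% of all genes. Past 2-fold upward was 1 of the 6, Calr4, against 1.83% of all genes, and the list median was 0.42. The log2 of the summed signal of the 6 markers was 11.99 after papain and 11.73 after PBS. This sum rests mostly on Gnai2, at 0.10, Omp, at -0.08, Meis2, at 0.29, and Gnao1, at 0.56. Each of these was brighter in both arrays than Trpc2, at 0.83, and Calr4, at 3.35. The part of a difference in vomeronasal tissue in the Retnla result was not tested.

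**Figure D3:**
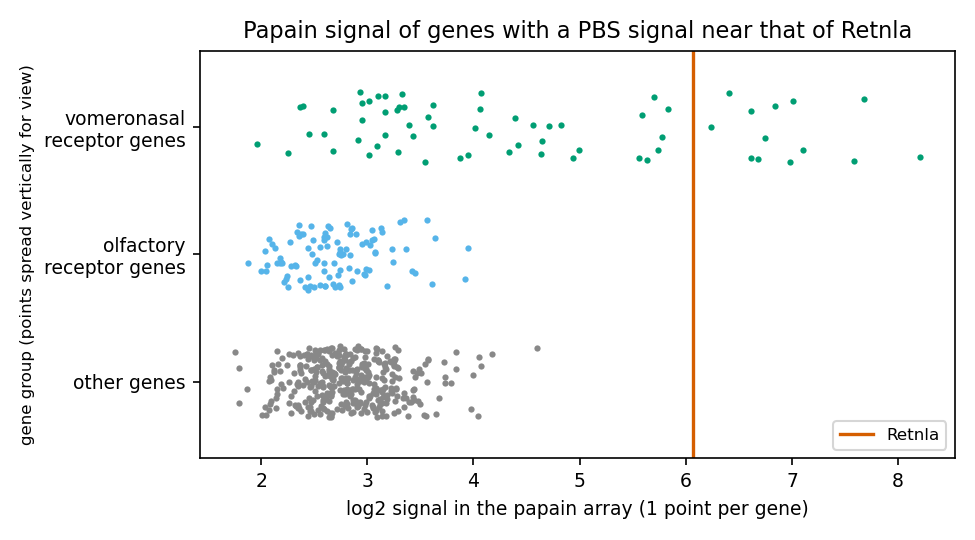
Papain log2 signal of the 554 genes whose PBS signal lay within 0.25 of that of Retnla, 1 point per gene, in rows for vomeronasal receptor, olfactory receptor and other genes. The vertical line is Retnla at 6.07; 13 points lie at or beyond it, all in the vomeronasal receptor row, and the other genes end at 4.60.

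Retnlg, which encodes RELM-gamma, had log2 signals of 6.33 after papain and 5.75 after PBS, both above background level. Its log2 difference was 0.58, a ratio of 1.49. Both signals lay under 6.85, so the size of this ratio is uncertain. For scale, the log2 difference of a single probe set had an SD of 0.33 across 1082 genes with repeated probe sets, an error of the probe sets that says nothing of the spread between mice. Of 2017 genes within 0.25 of the mean signal of Retnlg, 200 (9.92%) differed by as much in either direction.

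Retnlb, which encodes RELM-beta, read 3.86 after papain and 4.28 after PBS. Both signals were under background level, so its log2 difference of -0.42 describes the probe set and gives no fold. Goblet cells, its known source, were represented by other markers, which read higher in the papain array on balance. Of 9 goblet cell markers 2 were past 2-fold upward, against 1.83% of all genes, and 0 downward, against 0.730%. Their median log2 difference was 0.49, with 7 above 0, 2 below and 2 under background in both arrays. Clca1 had 1.84, Fcgbp 1.07, Muc5ac 0.61 and Agr2 0.49, while Muc2 had -0.09 and Spdef -0.04. The log2 of the list's summed signal was 13.43 against 12.93. The Retnlb signal was thus not above background in either array while goblet cell mucin genes were bright in both.

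Retn, which encodes resistin, read 5.13 after papain and 5.18 after PBS, just above background level in both arrays. The log2 difference was -0.05. Markers of adipocytes, its source in mice, were also dim: 2 of 6, Adipoq among them at 4.00 and 4.39, were under background in both arrays and 1 of 6 exceeded 6.85 in both, the lipase gene Lpl. Their median difference was -0.18, with Fabp4, a fatty acid carrier, at -0.97 from a papain signal of 4.91 under background and Cidec, a lipid droplet protein, at 0.56. Genes reported to encode receptors of resistin differed little: Cap1 had -0.21, Ror1 -0.12 and Tlr4 0.00. Past 2-fold were 0 of these 3, against 1.83% of all genes upward and 0.730% downward.

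The 3 clustered genes thus read in different ways, Retnla far higher after papain, Retnlg higher by less than 2-fold and Retnlb under background. They share sequence as a family, which leaves each probe set's own share of signal from its relatives uncertain. Retnla begins 23.7 kb after Retnlb and Retnlg begins 28.1 kb after Retnla, and 0 other annotated genes lie between Retnlb and Retnlg. Within 400 kb on either side of the Retnla start, 6 other genes had a signal and 0 were past 2-fold, with log2 differences from -0.34 for Myh15, a myosin gene, to 0.51 for Morc1, a germ cell gene. Dzip3 had 0.10, Trat1, a T cell receptor adaptor, -0.01 and Cip2a -0.01. Of all genes 1.83% passed 2-fold upward and 0.730% downward. Trat1, Myh15 and 1700026J12Rik were under background in both arrays and Morc1 after PBS, so of the 6 only Dzip3 and Cip2a could show a change in transcript in either direction.

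**Figure D4:**
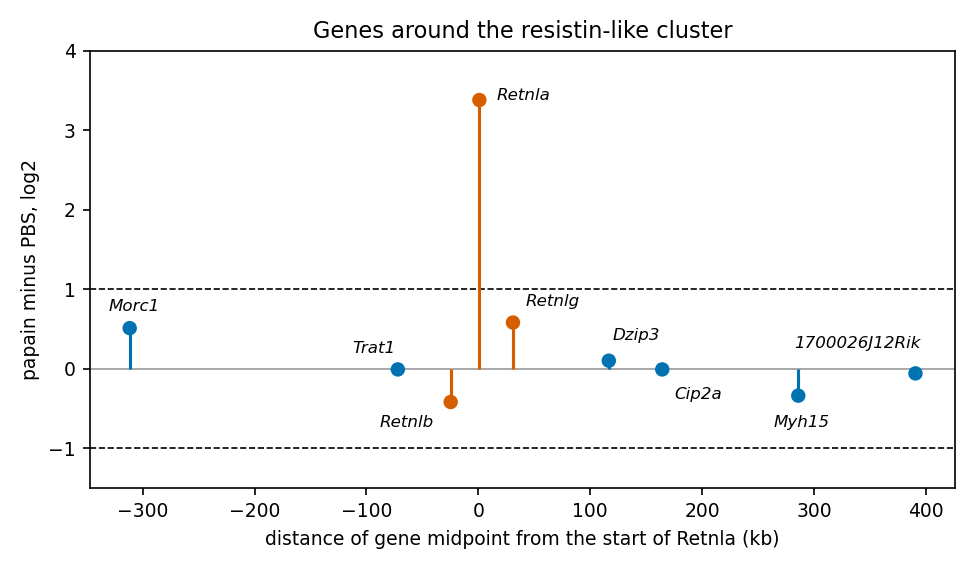
Papain minus PBS log2 difference (vertical) of genes with a signal, by the distance of their midpoint from the start of Retnla in kb (horizontal), with dashed lines at 2-fold. Retnla stands at 3.38 between Retnlb at -0.42 and Retnlg at 0.58, and the 6 other genes lie between -0.34 and 0.51.

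Arg1 had log2 signals of 6.40 after papain and 5.93 after PBS. Both were above background level and under 6.85. The log2 difference was 0.47, a ratio of 1.38, and 359 of 2024 genes of like mean signal (17.7%) differed by as much. Around it, arginine metabolism showed no common direction: of 14 measured genes 5 were above 0 and 9 below, with a median of -0.12. Past 2-fold were 0 of the 14, against 1.83% of all genes upward and 0.730% downward. A list of 14 genes is too short to tell 0 from these shares. Ass1, which makes argininosuccinate, had 0.70 from a PBS signal of 4.87 under background. Arg2, the mitochondrial arginase, had -0.43, Srm, the spermidine synthase, -0.48, and Slc7a7, a cationic amino acid transporter subunit, -0.45. Nos2, the inducible nitric oxide synthase that competes with arginase for its substrate, had -0.17. Arg1 and Arg2, which catalyse the same reaction, had differences of opposite sign, both smaller than 2-fold. Arg2 read 6.36 after papain and 6.79 after PBS, also under 6.85. With an SD of 0.33 for a single probe set, this contrast is uncertain.

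Mrc1, which encodes the mannose receptor CD206, was the 1 gene of the 7 with both signals above 6.85. It read 7.73 after papain and 7.54 after PBS, a log2 difference of 0.18. About as many genes of like signal differed by more as by less, 982 of 1897 (51.8%). Mrc1 is expressed by tissue macrophages and by lymphatic and sinusoidal endothelium. Markers of those vessels had a median of -0.18, among them Flt4 at -0.65 and Lyve1 at 0.26. Past 2-fold were 0 of 7, against 1.83% of all genes upward and 0.730% downward, and 7 genes are too few to tell. In the mannose receptor family 1 of 3 other genes was at least 2-fold higher, against 1.83% of all genes: Pla2r1, the phospholipase A2 receptor, at 7.99 against 6.83, a log2 difference of 1.16 and 2.24-fold, with a PBS signal just under 6.85. Mrc2, the collagen receptor, had -0.42 and Ly75, the dendritic cell receptor DEC-205, 0.17.

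Pdcd1lg2, which encodes PD-L2, read 5.06 after papain and 5.22 after PBS, close to background level in both arrays. Its log2 difference was -0.16, a size reached by 1302 of 1968 genes of like signal (66.2%). Cd274, which encodes the related ligand PD-L1 and starts 48.81 kb before Pdcd1lg2 on chromosome 19, read 7.39 and 7.03, a difference of 0.36. Their shared receptor gene Pdcd1 had 0.26. Over the 12 genes of the B7 and CD28 families 0 were past 2-fold and the median was -0.01, with Cd276 at -0.47 and Icosl, the ligand of ICOS, at -0.27. Dendritic cells also express PD-L2, and 0 of 7 of their markers were past 2-fold, with a median of 0.09, Ccr7 at 0.52 and Batf3 at 0.47. Of all genes 1.83% passed 2-fold upward and 0.730% downward. Lists of 12 and 7 genes are too short to tell 0 from these shares.

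Other genes used as signs of alternative activation split in the same way as the 7, with few large differences among many small ones. Of 20 measured, 2 were at least 2-fold higher, the chitinase-like genes Chil4 at 12.74 against 8.63 and Chil3 at 6.68 against 4.65, and 0 were lower. Chil3 lay under 6.85 after papain and under background after PBS. The part of signal from Chil4 in the Chil3 probe set was not tested, so the 2 may not be separate results. The median of the 20 was 0.11, with 12 genes above 0 and 8 below. Which cells of the mucosa gave these signals, macrophages or others such as epithelium, was not tested. Alox15, a lipoxygenase, had 0.47 and Tfec, a macrophage transcription factor, 0.39. As a share, 2 of 20 here and 1 of 7 above stand beside 1.83% of all genes, and these lists were chosen with results of these arrays known.

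The measured genes of IL-4 and IL-13 signalling differed by less than 2-fold in array signal. Of 18 measured IL-4 and IL-13 signalling genes 0 were past 2-fold, with 7 above 0, 11 below and a median of -0.09. Over all genes 1.83% passed 2-fold upward and 0.730% downward, and 18 genes are too few to tell a count of 0 from these shares. Background was not reached in either array by 3 of the 18, Il4 among them at 4.65 after papain and 4.03 after PBS. Il13 read 5.81 after papain and 5.52 after PBS, both under 6.85. Jak1, a kinase of the IL-4 receptor, had 0.75, Stat6 -0.29, Tyk2 -0.29 and Pparg, a nuclear receptor of alternative activation, -0.44. Genes of classical activation, the response to interferon-gamma and microbial products, had a median of 0.09. Of 15 measured, 0 were past 2-fold, likewise too few genes to tell 0 from the shares above. Among the 15 were Fpr2 at 0.68, Il1b at 0.51, Cxcl11 at 0.44 and Ccl5 at -0.49.

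Leukocyte markers were read beside these results. Over all genes 1.83% passed 2-fold upward and 0.730% downward. Each list below is too short to tell a count of 0 past 2-fold from these shares. Of 9 measured macrophage markers 6 exceeded 6.85 in both arrays and 0 were under background in both. Their differences ran from -0.46 for Cd68 to 0.33 for Adgre1, the gene of a classical macrophage surface marker, with 0 of 9 past 2-fold and a median of 0.15. The log2 of their summed signal was 12.04 after papain and 11.91 after PBS. Monocyte markers had a median of 0.23 with 0 of 7 past 2-fold, from Nr4a1 at -0.49 to Plac8 at 0.43. Neutrophil markers, relevant to Retnlg, had a median of 0.06, with 1 of 12, the chemokine receptor Cxcr2, at 1.26 and Mmp9 at -0.81. The log2 of the neutrophil list's summed signal was 13.04 against 12.94, a sum dominated by Ltf, which glands also make. Eosinophil markers had 0 of 5 past 2-fold, a median of 0.25 and 0 genes above 6.85 in both arrays. The part of cell numbers in the Retnla result was not tested.

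**Figure D5:**
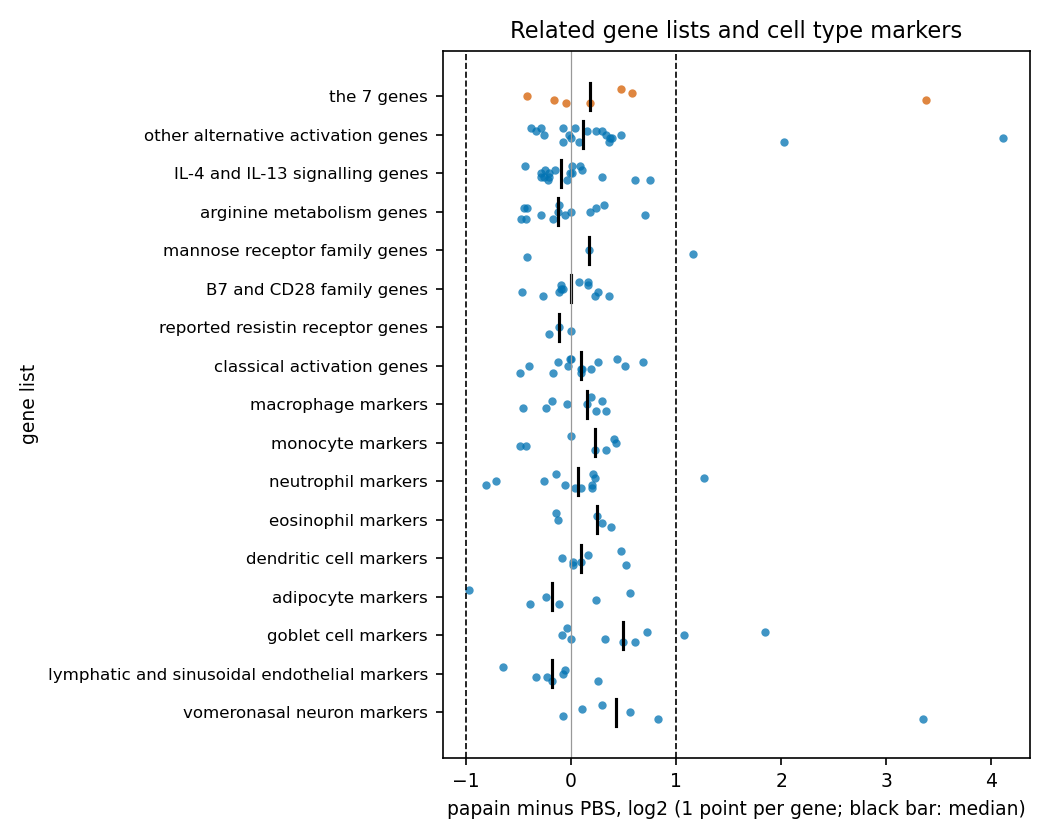
Papain minus PBS log2 difference (horizontal) of each measured gene in the 7 genes, the related lists and the cell type marker lists (rows), 1 point per gene, with a black bar at each list's median and dashed lines at 2-fold. Retnla at 3.38, Chil4 at 4.11, Chil3 at 2.03 and Calr4 at 3.35 stand apart from lists whose medians run from -0.18 to 0.49.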

How the data were processed

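The authors deposited log2 signals per transcript cluster of both arrays, a scale read from the values (medians 5.70 for papain and 5.64 for PBS). The submitters' processing notes name Transcriptome Analysis Console 4.0. How signals were background-corrected, summarised and normalized is not stated in these notes. Any scaling of the arrays to each other would remove a difference in total RNA.

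Of 41345 clusters, 23521 had 1 symbol, and the brightest per gene by mean signal was kept. All 7 genes were found, with their IDs and symbols in RefSeq's gene table. Differences are papain minus PBS in log2, counted at 2-fold without a floor. Members and lists were chosen with earlier results of these data known. From each list up to 4 genes with the largest difference, among those above background in an array, could be named. In some marker lists the brightest 2 could be named as well. Others named (Nos2, Adipoq, Odf1, Il4, Il13, Muc2, Spdef, Gnai2, Omp, H2-M1 and other genes of like rank, neighbours) were chosen after values were seen. So were the comparisons with genes of like signal. Genes near Retnla in both signals exclude predicted genes.

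The alternatives were quantile normalization, a median difference of 0, loess (span 0.3), other probe set rules, 1.5-fold and 3-fold thresholds and a floor of 6.29. Steps were tested on simulated data. Promoters were scanned on both strands. Python 3.11.15, numpy 2.4.6, pandas 2.3.3 and statsmodels 0.14.6 were used.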

Additional observations from a re-analysis of the deposited data

How the results depend on the processing

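No difference of the 7 genes changed sign under quantile normalization, a median difference set to 0 or loess. Averaging probe sets or choosing them on the PBS array could not change these values, since each gene has 1 probe set. Retnla ranged from 3.29 to 3.41, Retnlg from 0.54 to 0.61, Arg1 from 0.45 to 0.50, Mrc1 from 0.18 to 0.31, Retnlb from -0.49 to -0.38, Pdcd1lg2 from -0.25 to -0.13 and Retn from -0.13 to -0.02. With a floor at the median signal of 6.29, which Retnla does not reach, 0 of the genes left were at least 2-fold higher. Without Retnla, a setting chosen after seeing the data, 0 were higher as well. Both counts were fixed by leaving out the 1 gene past 2-fold, so they say nothing of the processing. At 1.5-fold, 2 IL-4 and IL-13 signalling genes, 1 arginine metabolism gene and 1 classical activation gene were higher in the papain array, where 0 of each were at 2-fold. At 3-fold, 0 mannose receptor family genes were higher. The median of the B7 and CD28 families turned to 0.03 with the median difference set to 0 and to 0.02 after loess, that of resistin receptor genes to 0.00 after loess, and that of classical activation genes to -0.03 above the floor. No paired analysis was possible because each group has 1 array. Signal over background limits Retnla, Retnlb, Retn and Pdcd1lg2.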
